A study of Homo sapiens with 4 samples.

Results

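The replication-dependent histone genes are the genes that supply the core histones H2A, H2B, H3 and H4 and the linker histone H1 for new chromatin. They were taken as the protein-coding RefSeq genes of chromosomes 1 and 6 whose symbol begins with H2AC, H2BC, H3C or H4C, or is H1-1 to H1-6. This gave 68 genes of 20033 protein-coding genes, with 55 on chromosome 6 and 13 on chromosome 1. The data are lists of STARR-seq peaks, in which a genomic fragment on a plasmid is copied into its own reporter RNA when it is active, from MDA-MB-231, an established line of human breast cancer cells. The drugs were added before the plasmids, and RNA was taken 8 h after transfection. The cells received SHP1705 at 10 µM, which stabilizes CRY2, a repressor of the circadian clock, MG132 at 100 nM, a proteasome inhibitor, the combination of both at the same doses, or DMSO as the control. All groups received the same plasmid library, made from sheared DNA of that cell line, and polyadenylated RNA was selected from all of them. Each treatment has 1 library with its own peak list, so every difference is between single libraries, with no replicate check, no spread and no p-value.

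Histone genes of this kind are switched on together when DNA is replicated. Most are short and have no introns, and their mRNA ends in a stem-loop bound by SLBP in place of a poly(A) tail, although several of them are also known to give polyadenylated mRNA. The genes lie in dense clusters, often as an H2A and an H2B gene that share the stretch between their starts. A peak at such a gene marks RNA aligned to that place, from the plasmid or otherwise, and does not measure how strongly the gene itself is expressed.

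The libraries differed in ways that touch every value below. The SHP1705 library held 118324303 fragments, against 27289266 in MG132, 28331486 with both drugs and 29717604 in DMSO. The SHP1705 list also had peaks at CDKN2A (tallest 5.16 FPM, fragments per 1000000 fragments of the library) and CDKN2B (27.8 FPM), tumour suppressor genes that MDA-MB-231 is known to lack. At CDKN2B the MG132 list had 0.66 FPM, and the combination and DMSO lists had no peak at either gene. The part of this difference, and of the difference in depth, in the histone results was not tested. Without the SHP1705 list, 14 of the 68 histone genes held a peak in any of the 3 other lists, against 71.7% of all protein-coding genes.

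Promoter stretches of some of the genes named below are given first, as the 150 bases before the gene start. They are read 5′ to 3′ on the gene's strand (RefSeq, GRCh38.p14). None of these stretches overlaps a SHP1705 peak tied to its gene, so they show the promoters and not the sequence under the peaks. Capitals mark the CCAAT box, TATAAA for the TATA box, ATTTGCA for the octamer core and AAACACA for the H1 box, on either strand. The first 3 are from the H2A, H1 and H2B genes of chromosome 6 that hold the tallest SHP1705 summits inside a gene of their class. The last 4 are from pairs of copies on chromosome 1. H2AC6 lies at chr6:26124022-26124171 on the plus strand, H1-2 at chr6:26056471-26056620 on the minus strand and H2BC12 at chr6:27146859-27147008 on the minus strand. H2AC18 lies at chr1:149842751-149842900 on the minus strand and H2AC19 at chr1:149850911-149851060 on the plus strand. H4C14 lies at chr1:149832507-149832656 on the plus strand and H4C15 at chr1:149861160-149861309 on the minus strand.
H2AC6: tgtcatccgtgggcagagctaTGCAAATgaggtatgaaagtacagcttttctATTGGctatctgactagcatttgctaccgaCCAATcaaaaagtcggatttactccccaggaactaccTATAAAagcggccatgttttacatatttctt
H1-2: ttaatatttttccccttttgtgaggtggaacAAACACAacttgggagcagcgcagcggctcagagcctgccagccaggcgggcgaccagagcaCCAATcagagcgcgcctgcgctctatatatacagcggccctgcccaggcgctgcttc
H2BC12: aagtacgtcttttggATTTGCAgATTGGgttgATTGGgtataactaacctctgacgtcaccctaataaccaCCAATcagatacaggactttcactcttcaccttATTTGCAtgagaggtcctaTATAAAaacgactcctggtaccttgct
H2AC18: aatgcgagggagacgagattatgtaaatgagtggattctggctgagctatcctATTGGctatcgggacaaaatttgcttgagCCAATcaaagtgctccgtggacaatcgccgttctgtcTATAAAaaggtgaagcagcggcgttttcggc
H2AC19: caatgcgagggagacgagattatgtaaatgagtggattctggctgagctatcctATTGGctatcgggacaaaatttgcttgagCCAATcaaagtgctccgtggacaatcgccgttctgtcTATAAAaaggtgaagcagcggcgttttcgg
H4C14: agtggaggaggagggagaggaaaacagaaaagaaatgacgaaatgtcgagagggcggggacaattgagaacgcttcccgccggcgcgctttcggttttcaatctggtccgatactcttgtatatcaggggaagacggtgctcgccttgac
H4C15: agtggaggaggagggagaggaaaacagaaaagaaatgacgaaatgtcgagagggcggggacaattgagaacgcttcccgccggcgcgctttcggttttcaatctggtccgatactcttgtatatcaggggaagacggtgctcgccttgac

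Histone genes with a peak were most numerous in SHP1705 and few in the other lists. A gene was counted when a summit lay inside it or within 1000 bp of it. In SHP1705, 28 of 68 histone genes (41.2%, Wilson 95% interval 30.3 to 53.0) held a peak, against 78.4% of all protein-coding genes. In MG132 there were 10 (14.7%, 8.19 to 25.0), against 54.1% of all genes. In the combination there were 4 (5.88%, 2.31 to 14.2), against 47.9%, and in DMSO 3 (4.41%, 1.51 to 12.2), against 43.9%. The intervals cover counting error only, and neighbouring genes that share a peak are not independent. In all 4 lists the histone share lay below the share of all genes.

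Most histone genes are far shorter than the usual gene, and a short gene offers less room for a peak. Of the 68 genes, 60 have a body of at most 1000 bp. Of these, 20 (33.3%) held a peak in SHP1705, against 96 of the 468 other protein-coding genes that are as short (20.5%). The same shares were 13.3% against 11.5% in MG132, 6.67% against 9.83% in the combination and 3.33% against 5.56% in DMSO. Set beside genes of like length, the histone genes no longer lay below the rest in SHP1705 and MG132, and no difference in share was tested. The share over all 528 such short genes, histone genes included, was 22% in SHP1705, 11.7% in MG132, 9.47% with both drugs and 5.3% in DMSO. All 8 histone genes with a longer body held a SHP1705 peak, against 78.4% of all protein-coding genes. Among the 8 was H2BC18, whose RefSeq model runs over 29682 bp.

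**Figure D1:**
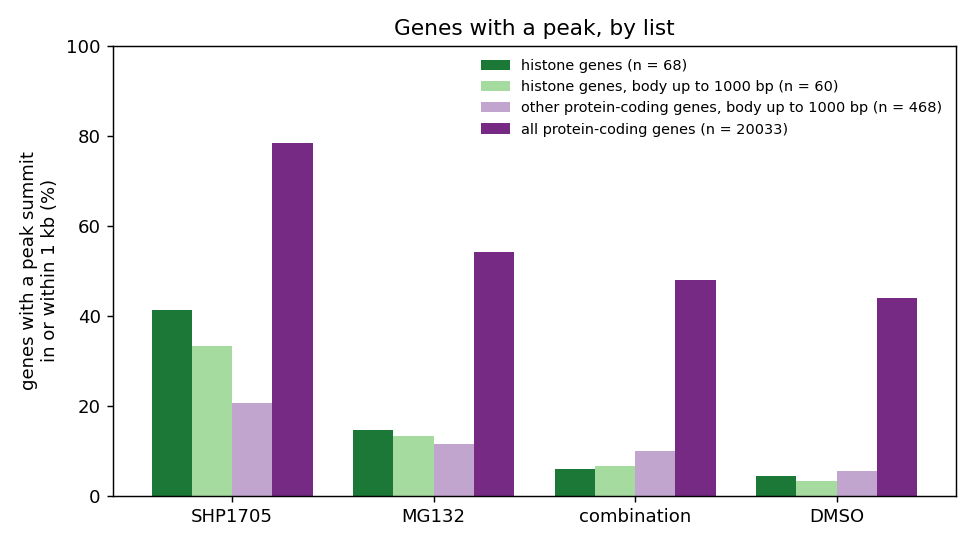
Percent of genes (y axis) with a peak summit inside the gene or within 1 kb, in each of the 4 lists (x axis), for the 68 histone genes, the 60 of them with a body up to 1000 bp, the 468 other protein-coding genes of such length and all 20033 protein-coding genes. The histone bars lie below those of all genes in each list, and the 60 short histone genes lie above other short genes in SHP1705 (33.3% against 20.5%).

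Histone peaks made up a small share of each list, and the share that the length of these genes would give was not computed. There were 29 distinct peaks at histone genes among 85986 in SHP1705 (0.0337%, 95% interval 0.0235 to 0.0484). MG132 had 9 of 69967 (0.0129%, 0.00677 to 0.0244), the combination 3 of 57299 (0.00524%, 0.00178 to 0.0154) and DMSO 2 of 47943 (0.00417%, 0.00114 to 0.0152). Because histone genes are packed, 9 of the SHP1705 peaks counted for more than 1 histone gene, as did 2 in MG132, 1 with both drugs and 1 in DMSO. The farthest tied summit lay 787 bp from the gene in SHP1705, 941 bp in MG132, 579 bp with both drugs and 876 bp in DMSO. The nearest summit beyond the limit lay at 1353, 1773, 1191 and 1605 bp in the same order.

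The tallest histone peak of the series lay on H2AC6, an H2A gene, and this was the only place where histone peaks of 3 lists coincided. In SHP1705 the peak at chr6:26124195-26124741 had a pileup of 3333 fragments, or 28.2 FPM. In MG132 the pileup was 27 (exact Poisson 95% interval 17.8 to 39.3), or 0.99 FPM, and in DMSO it was 30 (20.2 to 42.8), or 1.01 FPM. The combination had no peak there. The SHP1705 and DMSO summits lay 25 bp apart, and the MG132 and DMSO summits 42 bp apart, all inside the H2AC6 gene. In FPM the SHP1705 pileup was 27.9 times that of DMSO (19.5 to 41.4, counting error only), while the MG132 pileup was 0.98 times that of DMSO (0.561 to 1.71). The summit lies within 1000 bp of the divergent H2B gene H2BC4, so H2BC4 holds the same peak. H2BC4 also had a taller MG132 peak of its own, with 171 fragments or 6.27 FPM at 7278 bp after its start. Its own SHP1705 peaks inside the gene reached 0.89 FPM, and neither the combination nor DMSO had one there.

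No histone gene held a peak in all 4 lists, against 25.9% of all protein-coding genes and 1.7% of the short ones. H2AC6, H2BC4 and H4C11 had peaks in 3 lists (4.41% of histone genes, against 18.8% of all genes). H2BC18, H2AC8 and H2AC11 had peaks in 2 (4.41%, against 20.9%). There were 30 histone genes with a peak in 1 list (44.1%, against 22.3%) and 32 with none (47.1%, against 12%). Beside genes of like length the order for none turned around. Of the short histone genes 53.3% had no peak, against 65.6% of the other short genes. A peak in 1 list was held by 40% against 27.1%, in 2 lists by 3.33% against 3.42% and in 3 lists by 3.33% against 1.92%. Of the 29 SHP1705 peaks, 2 overlapped a histone peak of another list, as did 2 of 9 in MG132, 2 of 3 in the combination and 1 of 2 in DMSO.

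At the other genes held by several lists, the summits lay at different places. At H4C11, which encodes H4, the SHP1705 summit lay 145 bp after the gene start with 3.03 FPM. The MG132 summit lay 623 bp after it with 1.72 FPM, and the combination summit 966 bp after it with 4.91 FPM, both past the end of the gene, in peaks that overlapped by 74 bp with summits 343 bp apart. At H2AC11 the combination had 7.91 FPM and SHP1705 1.06 FPM, in peaks that overlapped by 379 bp with summits 651 bp apart. At H2AC8 a SHP1705 summit of 0.89 FPM lay inside the gene, and the MG132 summit of 2.02 FPM lay 895 bp past its end. At H2BC18 the MG132 peak of 3.48 FPM lay deep in the long gene model, 17495 bp from the start, and the SHP1705 peaks near the start and further in reached 0.62 FPM. The tallest MG132 height at FCGR1A, a neighbour that is not a histone gene, was also 3.48 FPM, and may be this same peak counted for both genes.

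**Figure D2:**
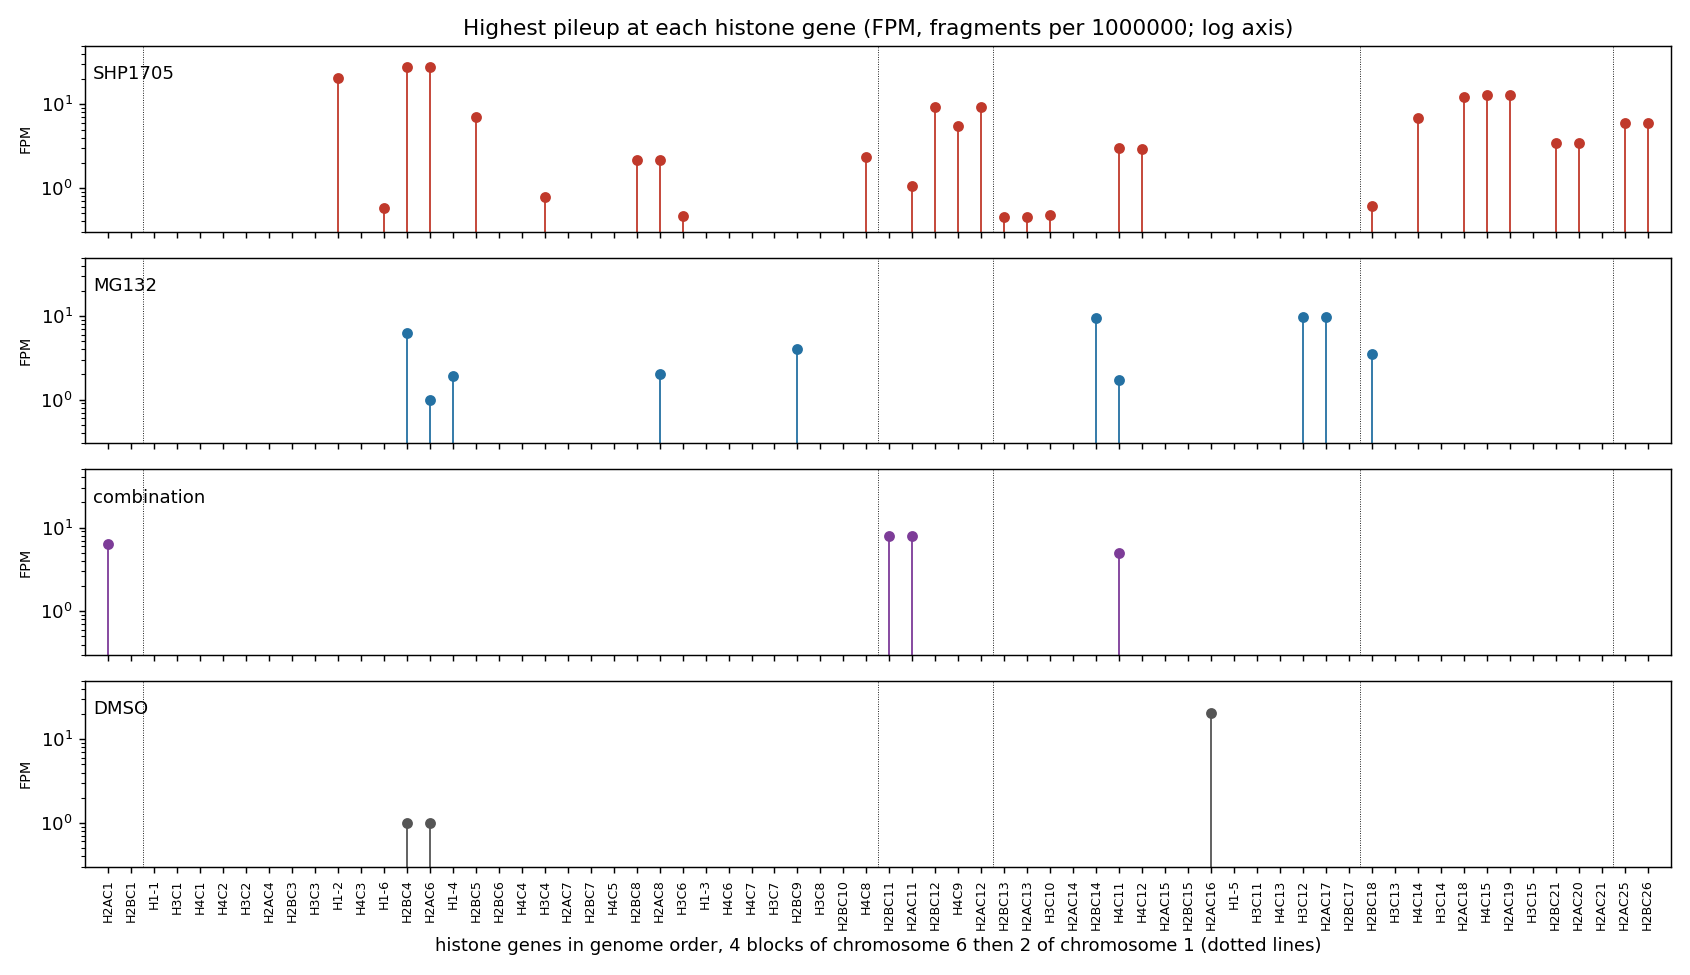
Highest pileup at each of the 68 histone genes, in FPM (y axis, log scale), in genome order along the x axis, with 1 panel per list. A gene without a point had no peak. SHP1705 points are spread over 28 genes and reach 28.2 at H2AC6 and H2BC4, while DMSO has points at 3 genes.

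Cluster by cluster, SHP1705 peaks lay at 10 of 32 genes in the large second block of chromosome 6 and at 5 of 16 in the fourth. Over all histone genes it was 28 of 68, against 78.4% of all protein-coding genes. Genes separated by more than 250000 bp were placed in different blocks, which gave 4 blocks on chromosome 6 and 2 on chromosome 1. In the first block of chromosome 6, with H2AC1 and H2BC1, the combination had a peak of 6.28 FPM beyond the end of H2AC1, and the other lists had none. The second block (26017032 to 26285534) holds 32 genes, of which 10 had a peak in SHP1705, 5 in MG132, 0 with both drugs and 2 in DMSO. Its first 8 genes, from H1-1 to H3C3, had no peak in any list. H1-2, a linker histone gene, came next with 2430 fragments or 20.5 FPM in SHP1705 and no peak in another list. H2BC5 followed H2AC6 and H1-2 in height within this block, with 7.01 FPM near its start and 3.08 FPM near its far end. H1-4 had a peak only in MG132, of 1.94 FPM at 653 bp before its start, and H2BC9 likewise, of 4.03 FPM inside the gene.

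The third block of chromosome 6 (27132316 to 27147562) holds 5 genes, of which 4 had a SHP1705 peak, 0 an MG132 peak, 2 a combination peak and 0 a DMSO peak. H2BC12, an H2B gene, reached 9.33 FPM in SHP1705 close to its start, a peak it shares with the neighbouring H2AC12. It had 5.51 FPM near its far end, a peak tied also to H4C9, which lies within the H2BC12 model. In the fourth block (27807479 to 27893891), of 16 genes, SHP1705 had a peak at 5, MG132 at 4, the combination at 1 and DMSO at 1. The SHP1705 heights there ended at 3.03 FPM, at H4C11, next to H4C12 with 2.92 FPM. MG132 had 9.64 FPM between H3C12 and H2AC17 and 9.42 FPM beyond H2BC14. DMSO had 606 fragments or 20.4 FPM at chr6:27864195-27864686, with its summit 876 bp before H2AC16. That was the tallest histone peak of the 3 smaller libraries, and no other list had a peak tied to H2AC16.

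On chromosome 1 the SHP1705 list held nearly all peaks. In the first block (149782689 to 149887965), 7 of 11 genes had a peak in SHP1705, 1 in MG132, 0 with both drugs and 0 in DMSO. In the second, the divergent H2AC25 and H2BC26 shared a SHP1705 peak of 717 fragments or 6.06 FPM, inside H2AC25, and the other lists had none. In the first block H2BC21, an H2B gene, had 3.50 FPM in SHP1705, in a peak of 2059 bp that also counted for H2AC20.

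The heights in the first chromosome 1 block came in near-equal pairs, at genes that are copies of each other. H2AC18 had 1468 fragments (12.4 FPM, 95% interval of the count 1394 to 1545) and H2AC19 had 1519 (12.8 FPM, 1444 to 1597), in peaks of 505 and 520 bp. H4C14 had 814 fragments (6.88 FPM, 759 to 872) and the peak at the start of H4C15 had 884 (7.47 FPM, 827 to 944), in peaks of 1106 and 1064 bp. The intervals of each pair overlap. The printed stretches of H4C14 and H4C15 are identical, as are the 300 bases around their starts, and H2AC18 and H2AC19 share a run of 299 bases, shifted by 1. H3C14 and H3C15 share 296 bases, and neither had a peak in any list. How fragments that align equally well to both copies were placed is not given in the sources used here, so these pairs cannot be told apart from 1 source counted at both. The RefSeq model of H4C15 spans 16753 bp and covers H2AC19, so the H2AC19 peak also counts for H4C15. H3C4 and H2AC7 share a gene start, and their models overlap.

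Most SHP1705 summits at short histone genes lay inside the gene, near its middle. RefSeq strands were at hand for 63 of the 68 genes. Of 18 SHP1705 peaks tied to short histone genes, 13 (72.2%) had their summit inside the gene, between 145 and 426 bp after its start, with a median of 248 bp. For all short protein-coding genes, 65 of 121 such peaks (53.7%) had it inside. In MG132, 2 of 7 histone summits lay inside, against 29 of 61 for short genes as a whole, in the combination 1 of 3, against 25 of 53, and in DMSO 1 of 2, against 20 of 28. With the longer histone genes counted too, 27 of the 29 SHP1705 histone peaks had their summit inside a histone gene. Of 55 short histone genes with a known strand, SHP1705 peaks covered the midpoint of 14. They covered the point 100 bp before the start of 1 gene, and the point 100 bp past the end of 6. In MG132 these counts were 2, 0 and 1, in the combination 1, 0 and 0, and in DMSO 1, 0 and 0. The H2AC6 peak of SHP1705 began at 26124195, inside the gene, which starts at 26124172 (H2AC6, chr6).

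**Figure D3:**
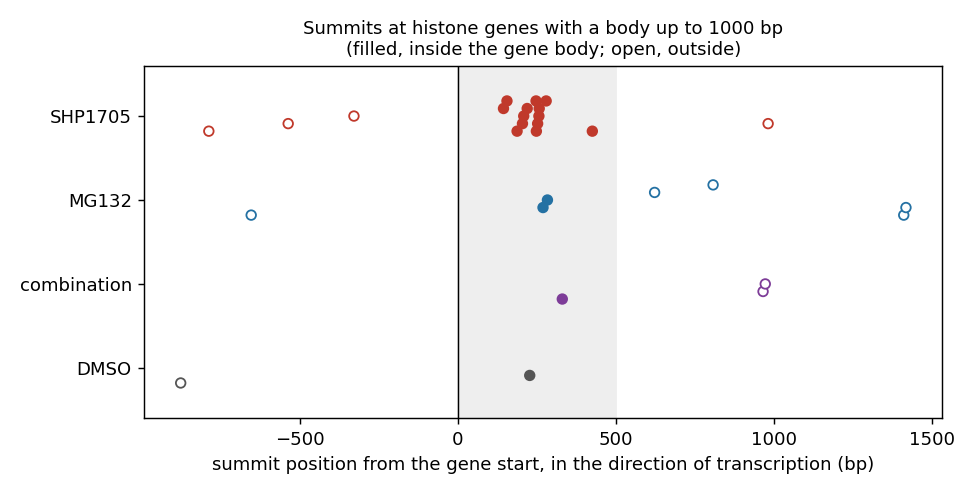
Position of the summit from the gene start in the direction of transcription, in bp (x axis), for peaks tied to histone genes with a body up to 1000 bp and a known strand, by list (y axis). Filled points lie inside the gene and open points outside, and the grey band runs from 0 to 500 bp, close to the length of a core histone gene. The 13 filled SHP1705 points lie between 145 and 426 bp.

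Few SHP1705 peaks at histone genes were too narrow to be called in the other lists. The narrowest peak that could be called equals the fragment size, which was 299 bp in SHP1705, 354 bp in MG132, 355 bp with both drugs and 346 bp in DMSO. Of the 29 SHP1705 histone peaks, 2 were narrower than 355 bp: one of 323 bp at the start of H2BC18 and one of 322 bp on H2AC8. The median width was 520 bp in SHP1705, 424 bp in MG132, 408 bp with both drugs and 438.5 bp in DMSO, against 449, 433, 434 and 431 bp over whole lists. Peaks over 1000 bp made up 9 of the 29 in SHP1705 and 0 in the other lists, where whole lists had 15.1% in SHP1705, 2.94% in MG132, 2.84% with both drugs and 3.09% in DMSO. The widest, of 2322 bp, ended inside H2BC8 and had 2.15 FPM, and another of 1944 bp lay at H3C4 with 0.79 FPM. All 29 SHP1705 peaks stood above 0.437 FPM, the lowest height called anywhere in the DMSO list.

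By histone class, SHP1705 peaks reached 8 of 18 H2B genes, 9 of 17 H2A genes, 6 of 14 H4 genes, 3 of 13 H3 genes and 2 of 6 H1 genes. The highest pileup is given as a level in FPM. It is the tallest of all peaks tied to a gene, and a longer gene has room for more peaks. Its median over genes with a peak was 6.06 for H2A, 4.78 for H2B, 4.27 for H4 and 0.473 for H3. The H3 genes H3C4, H3C6 and H3C10 ranged from 0.465 to 0.786, below all 6 H4 genes, which ranged from 2.35 to 12.8. A peak tied to genes of different classes counted in each, so some heights are those of a neighbour. The 12.8 at H4C15 is the H2AC19 peak, while the peak at the start of H4C15 had 7.47. At H4C9 the peak of 5.51 lay 787 bp outside the gene, and the 28.2 at H2BC4 is the H2AC6 peak. The 2 H1 genes had 20.5 (H1-2) and 0.583 (H1-6). Over all histone genes with a peak the median was 3.50 in SHP1705, 3.76 in MG132, 7.09 with both drugs and 1.01 in DMSO. Over all protein-coding genes with a peak it was 4.07, 7.0, 8.93 and 9.79 in the same order. The DMSO value rests on 3 genes and 2 peaks, 1 of them counted for both H2AC6 and H2BC4. With every histone peak counted once, the median was 2.35 FPM in SHP1705, 3.48 in MG132, 6.28 with both drugs and 10.7 in DMSO, so that DMSO came out highest and not lowest. For histone genes with a body of at most 1000 bp, the median over genes with a peak was 3.27, 3.02, 7.09 and 10.7 FPM in the same order. The last of these values rests on 2 genes. Over all short protein-coding genes with a peak, histone genes included, it was 2.53, 4.34, 7.25 and 4.56.

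**Figure D4:**
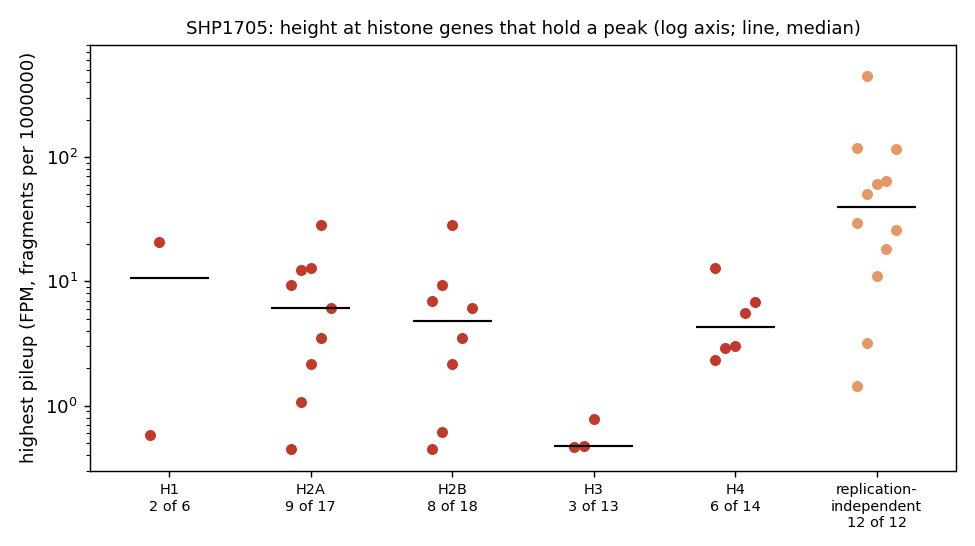
Highest SHP1705 pileup in FPM (y axis, log scale) at each replication-dependent histone gene with a peak, by class, and at the replication-independent histone genes (x axis, with the number of genes with a peak of the number measured). Lines are medians: 0.473 for the 3 H3 genes, 6.06 for the 9 H2A genes and 39.8 for the 12 replication-independent genes. A peak tied to genes of different classes counts in each.

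SHP1705 was set against DMSO as the comparison for CRY2 stabilization. With 1 library each and unlike depth, an effect of the drug cannot be told apart from a difference between the libraries. A peak in SHP1705 and none in DMSO was found at 26 of 68 histone genes (38.2%), against 38.4% of all protein-coding genes, nearly the same share. Among the 60 short genes it was 19 (31.7%), against 19.3% of all short ones. The reverse, a DMSO peak and none in SHP1705, was found at 1 gene, H2AC16 (1.47%, against 3.89%), and 2 genes, H2AC6 and H2BC4, held a peak in both lists (2.94%, against 40%).

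MG132 was set against DMSO as the comparison for proteasome inhibition, again between single libraries. MG132 alone had a peak at 8 histone genes (11.8%, against 20.4% of all genes), DMSO alone at 1 (1.47%, against 10.3%), and both lists at 2 (2.94%, against 33.7%). The combination alone had a peak at 4 (5.88%, against 16.8%), DMSO alone at 3 (4.41%, against 12.8%), and the combination and DMSO together at 0 (0%, against 31.1%). These comparisons share the DMSO list. Against SHP1705 alone, the combination had a peak that SHP1705 lacked at 2 genes (2.94%, against 4.58%), H2AC1 and H2BC11, and lacked 26 that SHP1705 had (38.2%, against 35.1%). Against MG132 alone, it had 3 that MG132 lacked (4.41%, against 11.7%) and lacked 9 that MG132 had (13.2%, against 17.9%). Beyond the H2AC6 peak and the overlaps named above, no histone peak recurred between lists.

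Histone genes that are active outside DNA replication, most of which give polyadenylated mRNA, mostly had tall peaks in SHP1705. All 12 measured genes of this list, each with a body over 1000 bp, held a SHP1705 peak. An MG132 peak was held by 10, a combination peak by 9, a DMSO peak by 8, and a peak in all 4 lists by 7. Over all protein-coding genes the shares were 78.4% in SHP1705, 54.1% in MG132, 47.9% with both drugs, 43.9% in DMSO and 25.9% in all 4 lists. H3-3B, which encodes the replacement histone H3.3, had 119 FPM in SHP1705, 12.5 in MG132, 7.45 with both drugs and 4.17 in DMSO. H3-5, a retrotransposed copy of an H3.3 gene, had 446, 12, 9.60 and 9.93 in the same order, and its fragments cannot be told apart here from those of the H3.3 genes. H3-3A, H2AJ, H1-10 and MACROH2A1 also had peaks in all 4 lists, with SHP1705 heights from 29.6 to 64.1. Not all were tall: CENPA, which encodes the centromeric H3 variant, had 1.44 FPM in SHP1705 and no peak elsewhere. MACROH2A2 had 3.21 in SHP1705, 3.19 in MG132, 12.6 with both drugs and no peak in DMSO. The list's median was 39.8 FPM in SHP1705, 5.28 in MG132, 3.0 with both drugs and 3.20 in DMSO, against 4.07, 7.0, 8.93 and 9.79 over all protein-coding genes with a peak.

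Genes for histone gene transcription and for pre-mRNA processing had a peak at 20 of 20 in SHP1705, 12 in MG132, 11 with both drugs and 11 in DMSO, with 7 in all 4 lists. The tallest in SHP1705 were YY1, a transcription factor, with 17.2 FPM and SLBP, the stem-loop binding protein, with 11.3. SLBP had no peak in MG132 or the combination and 5.18 FPM in DMSO. The list's median was lowest in SHP1705, with 3.85 FPM, against 7.24 in MG132, 10.0 with both drugs and 11.8 in DMSO. The order was the same over all protein-coding genes with a peak, with 4.07, 7.0, 8.93 and 9.79. GON4L, for example, had 3.68 in SHP1705, 6.93 in MG132, 16.7 with both drugs and 19.4 in DMSO. The others in all 4 lists were POU2F1, CASP8AP2, ERI1, CSTF3 and SYMPK, with SHP1705 heights from 1.39 to 4.99, besides YY1. Histone chaperones, which carry histones to DNA, had a peak at 15 of 15 in SHP1705, 8 in MG132, 12 with both drugs and 9 in DMSO, with 8 in all 4 lists. CHAF1A, a subunit of the chromatin assembly factor, had 30.3, 0.696, 8.54 and 10.8 FPM in SHP1705, MG132, the combination and DMSO, and NAP1L1 had 28.8, 6.41, 0.635 and 0.909. The others in all 4 lists were RBBP4, NASP, SUPT16H, CHAF1B, HIRA and ATRX, with SHP1705 heights from 2.24 (CHAF1B) to 24.5 (RBBP4). The median of the chaperones was 9.41 in SHP1705, 1.06 in MG132, 3.02 with both drugs and 4.07 in DMSO. It lay above the median of all genes in SHP1705 and below it in the other lists. The genes of both lists are mostly longer than the histone genes, and their counts lie near or above the shares of all genes given above.

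Genes that are not histone genes lie in the chromosome 6 cluster too. Between H2AC1 and H2BC17, over 2.17 Mb, lie 20 other protein-coding genes, of which 15 had a peak in SHP1705, 15 in MG132, 9 with both drugs and 6 in DMSO. HMGN4, a nucleosome-binding protein gene, was the tallest of them in SHP1705 with 17.2 FPM, and HFE, the iron regulator, in the combination with 23.2. Of all peaks with a summit in this span, 19 of 108 in SHP1705, 8 of 83 in MG132, 2 of 43 in the combination and 2 of 51 in DMSO were tied to a histone gene. These neighbours are mostly longer, and their difference from the histone genes was not tested.

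The promoters of most histone genes, other than those of H4, carried the CCAAT box. In windows from 250 bases before to 50 after the gene start, CCAAT (or ATTGG) was found in 54 of 63 histone promoters (85.7%), against 35.7% of 27305 gene promoters of the same length. It was in all of the 6 H1, 16 H2A, 18 H2B and 11 H3 promoters, but in 3 of 12 H4 promoters. TATAAA (or TTTATA) was found in 41 (65.1%), against 12%. ATTTGCA (or TGCAAAT), the core of the octamer element of H2B genes, was found in 27 (42.9%), against 4.23%, with 14 of 18 H2B, 11 of 16 H2A, 2 of 11 H3, 0 of 6 H1 and 0 of 12 H4 promoters. The printed stretches of the H4 genes H4C14 and H4C15 hold none of the motifs in capitals. AAACACA (or TGTGTTT), the H1 box, was found in 6 of 6 H1 promoters and in 9 in all (14.3%), against 5.76%. The E-box CACGTG, the sequence bound by the clock activators that CRY2 represses, was found in 0, against 7.43%. No searched motif contains another, and an absent match says only that these letters are not in this window. The windows are not all separate sequences, so some matches are counted more than once. H3C4 and H2AC7 have the same 300 bases, the copy pairs of chromosome 1 have nearly the same ones, and windows of divergent genes can overlap. CCAAT was found in 22 of 27 promoters of genes with a SHP1705 peak and in 32 of 36 without, and TATAAA in 17 of 27 and 24 of 36.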

How the data were processed

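Per the labels, RNA from 4 STARR-seq libraries was sequenced, 1 per treatment. The submitters' processing notes name hg38 and the tools MACS2, Bowtie2, FastQC and Trimmomatic. The authors ran MACS 2.2.6 on every library separately, per the file headers, keeping duplicates, without a control, at q 0.01 and with a 10000 bp window for the regional background. The signal is the pileup, the fragments that cover a summit, deposited by the authors without scaling. The fold ratio and the −log10 p and −log10 q of each peak are as deposited by the authors, and the −log10 q served only to filter peaks within a list. Peaks on the main chromosomes were tied to RefSeq genes of GRCh38.p14, whose coordinates are those of hg38, with Python 3.11.15 and pandas 2.3.3, and pileups were divided by the fragments in the header, per 1000000. In a check on simulated data, 200 of 200 planted summits were tied as planted over 20033 genes. Positions and widths are in bp.

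The depth was 27289266 to 118324303 fragments. The 95% intervals describe counting error alone. Those of pileups and their ratios treat fragments as independent, and duplicated fragments were kept, so they may be too narrow even for that. The genes, lists and motifs were chosen with earlier results of these data known. Named genes are those with a peak in 2 or more lists, the 5 tallest of each list and those with the widest and narrowest peaks, and of the other lists the 2 tallest in SHP1705 and those in all 4 lists. The values of 1 gene that this rule names are not reported here. Genes named for a block, class, copy pair or comparison outside this rule were chosen after their values were seen. Promoters came from RefSeq for 63 of 68 genes, with the first entry of the table for each gene. The alternatives were 3 ways to tie a peak, a width minimum, a stricter q, equal list length and a height minimum.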

Additional observations from a re-analysis of the deposited data

Results flagged for a closer look

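Histone pseudogenes were not among the 68 genes, and 2 of them held a SHP1705 summit, with no DMSO summit inside them. H3C9P, past the end of the second chromosome 6 block, had 2.49 fragments per 1000000 (FPM), and H2BC2P, between the first and the second block, had 0.955. H4C16 and H2BC12L, replication-dependent histone genes on chromosomes other than 1 and 6, had no peak in any of the 4 lists.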

How the results depend on the processing

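No paired analysis was possible because there is 1 library per treatment. Of 133 values under 7 alternatives, 110 stayed within 1.5 times the value reported and 23 moved further. With summits inside the gene only, MG132 had 4 genes with a peak, the combination 1 and DMSO 1, their peaks 4, 1 and 1, and genes with a peak in a drug list but not in DMSO 3 for MG132 and 1 for the combination. With summits within 5000 bp, genes with a peak numbered 18 (MG132), 14 (combination) and 13 (DMSO), peaks 10 in the combination and 6 in DMSO, and genes without a DMSO peak 13 for MG132 and 11 for the combination, while the DMSO median height was 11.9 FPM. With lists of equal length (47943 peaks), MG132 had 6 genes, 5 peaks, 5 genes without a DMSO peak and a median height of 7.84, and the SHP1705 median height was 6.06. With at least 1 FPM, SHP1705 had 18 peaks and a median height of 6.06. SHP1705 had the most genes with a peak under each of the 7 alternatives, from 21 to 42. The order of MG132, the combination and DMSO depends on the distance: the combination and DMSO were equal with summits inside the gene. Counts of 2 to 10 in the smaller libraries limit any order among them.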
